A study of Mus musculus with 49 samples.

Results

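The neocortex of rNLS8 mice immunized with the combined TDP-43 peptides 10+12 (group TDP-10+12, n = 10) was compared with that of monogenic littermates given PBS (group ctrl-PBS, n = 17). The 27 mice were taken from a series of 49 by genotype and treatment as labelled, and no expression value was used to choose them. The TDP-10+12 group held 6 females and 4 males, and the ctrl-PBS group 10 females and 7 males, all on the mixed C57BL/6J x C3H/HeJ background. The question behind the comparison was which transcripts separate immunized, transgene-expressing cortex from cortex without the pathogenic transgene.

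Bigenic rNLS8 mice combine NEFH-tTA, in which the neurofilament heavy chain promoter drives the tetracycline transactivator in neurons, with a tetO-controlled human TDP-43 that lacks its nuclear localization signal (hTDP-43ΔNLS). Doxycycline chow kept the transgene silent until 25.5 weeks of age. The chow was then changed in both groups, so that the ctrl-PBS mice also went through doxycycline withdrawal, and tissue was taken 3 weeks later, at 28.5 weeks. Peptides 10 and 12 come from the glycine-rich part of human TDP-43 and were given as ovalbumin conjugates with adjuvant, 40 µg in all per immunization, from 8 weeks of age, 5 times before and 1 time after induction. The ctrl-PBS mice received PBS in place of the conjugates and did not express hTDP-43ΔNLS. Which of the 2 transgenes each monogenic mouse carried is not given in the sources used here. The groups therefore differed in genotype and in immunization at once, and the part of each cannot be told apart in this comparison. The other groups of the series, TDP-PBS and TDP-15, serve to place the values. TDP-PBS held bigenic mice given PBS (n = 10, 4 females and 6 males). TDP-15 held bigenic mice immunized with peptide 15 of TDP-43 (n = 12, 5 females and 7 males). TDP-10+12 was also tested against TDP-PBS, without a term for sex, although the balance of the sexes differed.

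TDP-43 is an RNA-binding protein that is mostly nuclear in healthy neurons and is lost from the nucleus and deposited in the cytoplasm in amyotrophic lateral sclerosis (ALS) and frontotemporal dementia. In the brain, microglia and astrocytes answer neuronal injury with complement, chemokines and intermediate filament proteins. Type I interferons act through STAT and IRF factors, which bind the interferon-stimulated response element (ISRE) in front of antiviral genes. Cells under stress can also activate the ATF4 programme of the integrated stress response, and neurons under injury can turn down synaptic genes.

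In the RNA, the TDP-10+12 cortex carried higher levels of interferon-stimulated, chemokine, complement and reactive glial genes, and lower levels of synaptic, ion channel and sterol synthesis genes, than the ctrl-PBS cortex. Of 18220 genes tested with edgeR, 7442 (40.8%) passed an adjusted p of 0.05. Of these, 3798 were higher (20.8% of the genes tested) and 3644 were lower (20.0%). The changes were mostly small. The genes called higher had a median log2 fold change of 0.36 with quartiles of 0.23 and 0.59, and those called lower a median of -0.31 with quartiles of -0.48 and -0.21. Changes of more than 1 on the log2 scale were rarer, with 333 called genes in the higher direction (1.83%) and 107 in the lower (0.587%). With library totals in place of TMM factors the split was 5422 higher and 2436 lower, since the median of all genes moved from 0.003 to 0.078 on the log2 scale. The groups did not overlap at all for 407 genes in the higher direction (2.23%) and for 471 in the lower (2.59%). In the accounts of gene lists below, each count is to be read against 20.8% higher and 20.0% lower among all genes tested, whose median log2 fold change was 0.003.

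**Figure D1:**
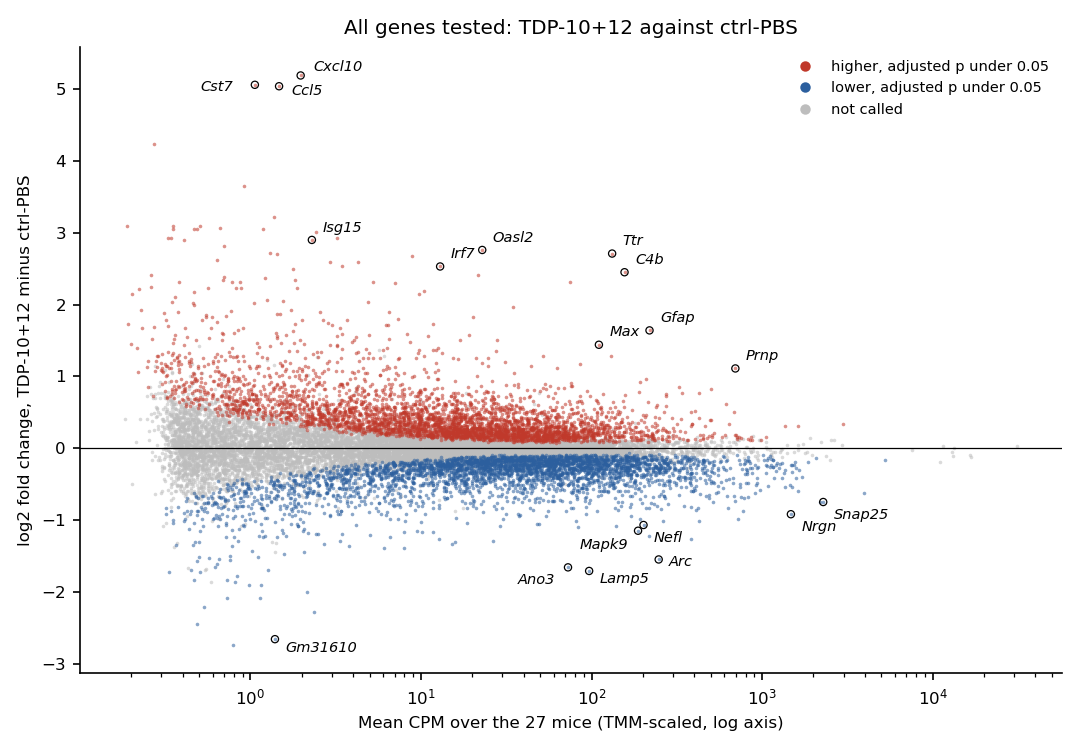
Each point is 1 of the 18220 genes tested, with its mean CPM over the 27 mice on a log axis against its log2 fold change, TDP-10+12 minus ctrl-PBS. Red points were called higher (3798) and blue points lower (3644) at an adjusted p under 0.05, grey points were not called, and rises reach 5.19 (Cxcl10).

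Total counts per library lay between 18970484 and 20866314 in the 27 mice, and 3 counts, taken as the smallest level the depth shows, stood for 0.139 to 0.165 CPM, the unit of counts scaled to library size used throughout. The sex labels matched the counts in all 27 mice, since Xist was at least 275 CPM in the 16 females and at most 1.24 CPM in the 11 males. Markers of the labelled tissue were present in every mouse. Slc17a7, the vesicular glutamate transporter of cortical excitatory neurons, had medians of 1770 CPM in TDP-10+12 and 1849 CPM in ctrl-PBS (log2 fold change -0.06 ± 0.07, adjusted p = 0.53). Nothing in the labels ties a library to an extraction or sequencing batch. All levels are TMM-scaled CPM, which do not correct for transcript length. Levels of single genes are compared between mice, while sums over lists and bins by mean CPM set genes side by side without that correction. Errors of log2 fold changes are standard errors of the fit. In whole tissue, fewer cells of a type and less RNA per cell cannot be told apart.

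The type I interferon-stimulated genes held 34 called rises among 35 members tested and no fall, with a median log2 fold change of 1.91. Isg15, a ubiquitin-like antiviral modifier, ranged from 0.955 to 9.46 CPM with a median of 5.59 in TDP-10+12, and from 0.207 to 1.30 CPM with a median of 0.567 in ctrl-PBS (log2 fold change 2.90 ± 0.36, adjusted p = 2.37e-09). Only mouse 242 of the TDP-10+12 group fell inside the ctrl-PBS range. Ifit1, which binds foreign RNA caps, had a median of 16.9 CPM against 2.56 CPM (2.67 ± 0.26, adjusted p = 5.81e-12), and again 9 of 10 mice exceeded the whole ctrl-PBS range. The bases before the starts of both genes are shown because they hold the ISRE, together with those of Cxcl10, a chemokine that interferons induce and the gene with the largest rise. The windows are the 250 bases before the RefSeq start on GRCm38.p6, read 5′ to 3′ on the gene's strand, with each match to GAAANNGAAA or its reverse complement in capitals. They lie at chr4:156200819-156201068 (minus strand) for Isg15, chr19:34640639-34640888 (plus strand) for Ifit1 and chr5:92348890-92349139 (minus strand) for Cxcl10.
Isg15: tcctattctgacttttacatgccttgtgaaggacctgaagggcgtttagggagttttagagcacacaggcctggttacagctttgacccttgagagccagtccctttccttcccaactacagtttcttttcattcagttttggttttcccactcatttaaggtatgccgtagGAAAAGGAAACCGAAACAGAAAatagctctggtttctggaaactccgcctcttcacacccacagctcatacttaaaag
Ifit1: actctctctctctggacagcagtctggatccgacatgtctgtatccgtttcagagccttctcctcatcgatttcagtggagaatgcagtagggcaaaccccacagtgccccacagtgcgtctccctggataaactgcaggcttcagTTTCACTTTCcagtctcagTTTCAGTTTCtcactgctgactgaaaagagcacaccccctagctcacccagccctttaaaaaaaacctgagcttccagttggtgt
Cxcl10: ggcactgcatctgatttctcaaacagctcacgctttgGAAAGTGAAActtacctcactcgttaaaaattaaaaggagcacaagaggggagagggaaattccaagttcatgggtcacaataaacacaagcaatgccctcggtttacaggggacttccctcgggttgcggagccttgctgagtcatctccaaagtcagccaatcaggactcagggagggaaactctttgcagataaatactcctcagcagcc

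The Isg15 window held 3 overlapping matches on the gene's strand, which begin 78, 72 and 66 bases before the start. Ifit1 held 2 matches on the opposite strand, with left ends 104 and 85 bases before the start, and Cxcl10 held 1, at 213 bases. RefSeq windows were at hand for 24 of the 35 interferon-stimulated genes, and 10 of them (41.7%) held the motif on either strand, against 420 of 13340 tested genes with a window (3.15%). A match describes the letters only.

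Members of the interferon pathway did not move alike. Among the effectors, Mx1, a GTPase that blocks viral replication, showed the largest fold change of the list (3.06 ± 0.33, adjusted p = 7.06e-11), with 0.704 to 2.25 CPM in TDP-10+12 against 0 to 0.456 CPM in ctrl-PBS. Usp18, the protease that removes ISG15 and damps receptor signalling, ranged from 3.02 to 13.3 CPM (median 6.65) against 0.256 to 1.66 CPM (median 0.855), without overlap (2.92 ± 0.28, adjusted p = 3.35e-12). Both separated the groups completely. Oasl2, Oas1b and Ifi27l2a were higher by 2.76 ± 0.29, 2.72 ± 0.31 and 3.01 ± 0.29 on the log2 scale, and Ifi204, a DNA sensor, by 3.22 ± 0.41. The Oas, Ifit and Ifi200 families hold near-identical copies, so that the split of reads between their members is uncertain. Of the transcription factors, Irf7 rose 5.79-fold (2.53 ± 0.26, adjusted p = 1.92e-11), and 9 of 10 TDP-10+12 mice were above every ctrl-PBS mouse. Herc6, the member that was not called, had medians of 12.9 and 12.1 CPM (0.02 ± 0.11, adjusted p = 0.905), and is named here after its values were seen.

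The interferons themselves were at or near the limit of the depth. Ifnb1 had 0 counts in all 27 libraries, Ifna4 had 1 count in 1 TDP-10+12 mouse, and Ifng had 3 counts in each group summed over its mice. Of the 7 receptor and receptor-kinase genes that could be tested, 3 rose and 2 fell, and they had a median of -0.06 that turns to 0.014 with library totals only. The 3 that rose were receptor subunits, Ifngr2, Ifngr1 (0.47) and Ifnar2 (0.28), and the 2 that fell were the Janus kinases Jak2 (-0.17 ± 0.07, adjusted p = 0.0462) and Tyk2 (-0.14), and apart from Ifngr2 and Jak2 they are named after their values were seen. The Jak2 call ended under 12 of 21 alternatives, among them library totals only (adjusted p = 0.313) and DESeq2 (adjusted p = 0.0546). Ifngr2, a subunit of the interferon gamma receptor, ranged from 82.0 to 105 CPM against 41.9 to 60.9 CPM, without overlap (0.84 ± 0.05, adjusted p = 3.50e-19). Ifnar1, a subunit of the type I receptor, had medians of 34.8 and 37.4 CPM and did not pass (-0.08 ± 0.04, adjusted p = 0.129), except without mouse 242 (-0.10, adjusted p = 0.0434).

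Chemokines included the largest rise of all genes tested, that of Cxcl10. Of 13 members tested 10 rose and 2 fell, and the median was 2.62. Cxcl10, the ligand of CXCR3, ranged from 1.66 to 7.93 CPM (median 5.70) in TDP-10+12 and from 0 to 0.622 CPM (median 0.101) in ctrl-PBS, or 1031 counts in 10 mice against 44 counts in 17 (5.19 ± 0.42, adjusted p = 1.44e-14). Ccl5, a T cell and monocyte attractant, followed with 1.26 to 6.99 CPM against 0 to 0.514 CPM (5.04 ± 0.40, adjusted p = 4.12e-15). No TDP-10+12 mouse overlapped a ctrl-PBS mouse in either gene. Ccl2 and Ccl3 were higher by 3.05 ± 0.38 and 2.82 ± 0.29 on the log2 scale at medians of 1.06 and 1.40 CPM. Cx3cl1, the membrane-bound ligand through which neurons signal to microglia, moved the other way, from a ctrl-PBS median of 938 CPM to 659 CPM, with all 10 mice below every ctrl-PBS mouse (-0.49 ± 0.06, adjusted p = 1.02e-09). Most chemokines were near the depth limit in ctrl-PBS. With at least 10 counts required in every mouse, the median over the members left was -0.279.

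Of 14 guanylate-binding proteins and immunity-related GTPases, which disrupt vacuoles around pathogens, 10 rose and none fell (median 1.17). Gbp6 had the largest rise, from a ctrl-PBS median of 2.23 CPM to 13.2 CPM (2.30 ± 0.26, adjusted p = 4.22e-10), and its groups did not overlap. Irgm1 was 2.54-fold higher (1.35 ± 0.17, adjusted p = 5.45e-09), with 8 of 10 mice above every ctrl-PBS mouse. Scores of this list varied widely within ctrl-PBS, from -0.69 to 1.63 (median log2 distance of the members from the ctrl-PBS mean), and only 2 TDP-10+12 mice exceeded the highest control. That control was mouse 131. The next highest ctrl-PBS score, 0.646 in mouse 232, was exceeded by every TDP-10+12 mouse except mouse 242 (0.538).

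Genes of MHC class I presentation rose in 12 of 16 cases and fell in 2 (median 0.78). B2m, the light chain of class I molecules, ranged from 65.9 to 304 CPM (median 201) against 50.6 to 124 CPM (median 81.6), with 9 of 10 mice above every ctrl-PBS mouse (1.28 ± 0.18, adjusted p = 5.70e-08). Psmb8, an immunoproteasome subunit, was 3.01-fold higher (1.59 ± 0.22, adjusted p = 2.85e-08), whereas Psmb10, another subunit, was lower (-0.21 ± 0.07, adjusted p = 0.0182), a call that ended with library totals only (-0.14, adjusted p = 0.151) and without mouse 242 or mouse 301 (adjusted p = 0.0615 and 0.0625). H2-D1 ranged from 19.2 to 200 CPM in TDP-10+12 and from 8.09 to 107 CPM in ctrl-PBS and did not pass (0.77 ± 0.47, adjusted p = 0.198). Without mouse 47 the value was 0.42 (adjusted p = 0.526), and the spread of H2-D1 within each group exceeded the difference between them. The H2 genes are polymorphic between the 2 parental strains, and reads of related H2 genes are hard to assign. Class II presentation gave 4 rises among 8 members (median 0.75). Cd74, the invariant chain, had medians of 9.16 and 3.85 CPM (1.25 ± 0.32, adjusted p = 0.00123), but 9 of the 10 mice lay within the ctrl-PBS range, whose highest mouse reached 22.9 CPM. That range was set by ctrl-PBS mouse 232 alone. The next ctrl-PBS mouse was at 6.28 CPM, below every TDP-10+12 mouse except mouse 277 (6.06 CPM).

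Disease-associated microglia genes, the set that microglia switch on near damage, were higher in 20 of 26 cases and lower in none (median 0.75). Cst7, a cathepsin inhibitor, ranged from 0.904 to 6.53 CPM (median 2.70) against 0 to 0.315 CPM (median 0.0520), or 557 counts in 10 mice against 25 in 17 (5.06 ± 0.40, adjusted p = 6.81e-15). Clec7a, a beta-glucan receptor, and Itgax, the integrin CD11c, were higher by 3.65 ± 0.34 and 3.05 ± 0.39 on the log2 scale. In these 3 genes no TDP-10+12 mouse overlapped a ctrl-PBS mouse. The receptor Trem2 and its adaptor Tyrobp rose less, by 1.56-fold (0.64 ± 0.13, adjusted p = 6.50e-05) and 1.72-fold (0.78 ± 0.11, adjusted p = 1.27e-07). Apoe, the main brain apolipoprotein, had medians of 1028 and 974 CPM and did not pass (0.12 ± 0.07, adjusted p = 0.189), except with library totals only or without mouse 301, and neither did the lipase Lpl (-0.11 ± 0.17, adjusted p = 0.631).

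Homeostatic microglia genes split, with 7 of 17 higher and 2 lower (median 0.16). Cx3cr1, the fractalkine receptor, was higher (0.27 ± 0.07, adjusted p = 0.000936) with medians of 44.6 and 37.0 CPM, and so were Tmem119 (0.23 ± 0.09, adjusted p = 0.0238) and Spi1, the myeloid master transcription factor (0.59 ± 0.12, adjusted p = 7.27e-05). P2ry12, the ADP receptor of resting microglia, was lower (-0.18 ± 0.06, adjusted p = 0.0135), with medians of 25.5 and 29.2 CPM and 4 of 10 mice below every ctrl-PBS mouse. The P2ry12 call ended with library totals only (-0.10, adjusted p = 0.17), without mouse 277 (adjusted p = 0.0504) and without 7 mice high in choroid plexus or olfactory genes (adjusted p = 0.0508). That of Tmem119 ended without mouse 200 (adjusted p = 0.0503) and without the same 7 mice (adjusted p = 0.124). The other lower member, Mef2c (-0.41 ± 0.07, adjusted p = 3.05e-06), is also a transcription factor of cortical neurons.

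Complement and Fc receptor genes rose in 15 of 17 cases and fell in none (median 0.89). C4b, a component of the classical pathway, ranged from 158 to 494 CPM (median 320) against 35.4 to 73.8 CPM (median 59.2), a 5.48-fold difference without overlap (2.45 ± 0.16, adjusted p = 6.06e-18). C1qa, a chain of the C1q recognition protein, rose 1.84-fold (0.88 ± 0.14, adjusted p = 7.66e-07) and C3 3.05-fold (1.61 ± 0.31, adjusted p = 3.55e-05). Fcgr3, a low-affinity receptor for IgG, had medians of 11.8 and 7.26 CPM (0.59 ± 0.13, adjusted p = 0.000241). Of the Toll-like receptors and adaptors 11 of 19 were higher and none lower (median 0.45), led by Tlr1 (1.89 ± 0.34) and Tlr2 (1.87 ± 0.24), the receptors of bacterial lipoproteins. The TNF, interleukin-1 and NF-kappaB list gave 18 rises among 23 and no fall (median 0.43). Tnf itself was at 0 to 1.44 CPM (median 0.787) against 0 to 0.612 CPM (median 0) and 7 of 10 mice exceeded every ctrl-PBS mouse (2.93 ± 0.61, adjusted p = 8.29e-05). Il1b had too few counts to be tested, with 44 summed over the 10 TDP-10+12 mice and 54 over the 17 ctrl-PBS mice.

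Reactive astrocyte genes were higher in 20 of 23 cases and lower in none (median 0.68). Gfap, the astrocytic intermediate filament, ranged from 181 to 1133 CPM (median 299) against 87.3 to 199 CPM (median 120), and 9 of 10 mice were above every ctrl-PBS mouse (1.64 ± 0.18, adjusted p = 1.15e-10). Its highest value, in mouse 301, stood far from the next, 384 CPM. Serpina3n, a secreted protease inhibitor, ranged from 24.7 to 266 CPM against 10.6 to 22.4 CPM, without overlap (1.96 ± 0.26, adjusted p = 1.25e-08), and Vim, another filament gene, was 2.22-fold higher (1.15 ± 0.16, adjusted p = 6.46e-08). Mouse 301 was the highest in both. The log2 fold change of Tgm1, a transglutaminase, was 3.10 with mouse 301 and 1.95 without it, and the list median 0.68 and 0.451. Lcn2, an iron carrier often used as a marker of reactive glia, had medians of 2.65 and 1.55 CPM and did not pass (0.20 ± 0.43, adjusted p = 0.747).

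**Figure D2:**
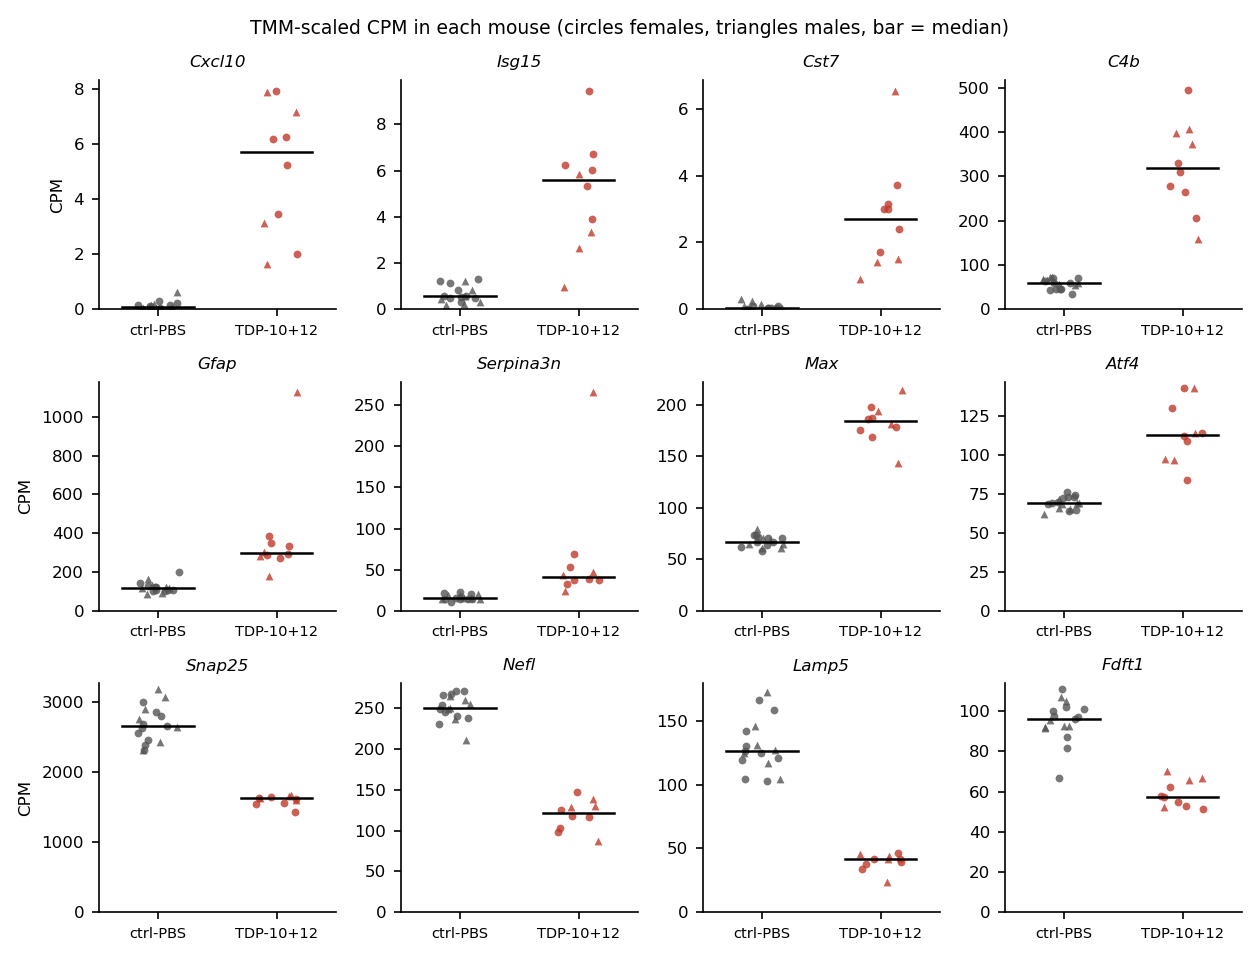
Each point is 1 mouse (circles females, triangles males), with TMM-scaled CPM on a linear axis from 0 and a bar at the group median, for 12 genes in ctrl-PBS (n = 17) and TDP-10+12 (n = 10). Isg15 and Gfap each have 1 TDP-10+12 mouse inside the ctrl-PBS range and Fdft1 has 2, while the other 9 genes do not overlap, and a single mouse stands apart in Gfap and Serpina3n.

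Homeostatic astrocyte genes were not higher in any of 16 cases and lower in 4, with a median of -0.06 that turns to 0.011 with library totals only. Gja1, the gap junction protein connexin 43, was lower (-0.33 ± 0.08, adjusted p = 0.000976) with 8 of 10 mice below every ctrl-PBS mouse, and Slc1a2, the glutamate transporter GLT-1, had medians of 1456 and 1775 CPM (-0.31 ± 0.07, adjusted p = 0.000444). Aqp4 and Aldh1l1 gave 0.14 ± 0.10 (adjusted p = 0.256) and -0.12 ± 0.07 (adjusted p = 0.162). Mature oligodendrocyte and myelin genes had 3 falls among 18 and no rise (median -0.13). The share of falls, 16.7%, was near the 20.0% over all genes, while rises made up 20.8% of all genes. Ugt8a, an enzyme of galactolipid synthesis, fell by 0.36 ± 0.11 on the log2 scale (adjusted p = 0.00651), while Mbp, myelin basic protein, gave -0.16 ± 0.10 (adjusted p = 0.195). It passed, at -0.32, when 7 mice high in choroid plexus or olfactory genes were left out. Precursors of oligodendrocytes had 6 rises and 1 fall among 12 (median 0.20), the fall being Bcas1 (-0.22 ± 0.09, adjusted p = 0.0419), a call that ended under 12 of 21 alternatives. The rises were led by Lhfpl3 (0.42 ± 0.09, adjusted p = 0.000255), and Pdgfra, the growth factor receptor that defines them, was 1.13-fold higher (0.18 ± 0.07, adjusted p = 0.0272).

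Vessel genes were divided. None of 16 genes of brain endothelium and its barrier was called, and the median of -0.03 turns to 0.043 with library totals only. Cldn5, the tight junction protein, had medians of 32.4 and 38.0 CPM (-0.08 ± 0.14, adjusted p = 0.665), and Pecam1 of 15.4 and 14.5 CPM (0.08 ± 0.08, adjusted p = 0.467). Genes of mural cells and meningeal fibroblasts gave 6 rises and 1 fall among 14 (median 0.19), the largest rise being Dcn, the proteoglycan decorin (0.77 ± 0.18, adjusted p = 0.000451). Of 15 metalloproteinases and their inhibitors 7 were higher and none lower (median 0.16). Timp1, an inhibitor, ranged from 0.289 to 11.5 CPM with a median of 0.551 against a median of 0.296 CPM (2.31 ± 0.47, adjusted p = 5.83e-05), and 0.93 remained without mouse 301. Mmp12, the macrophage elastase, gave 2.32 ± 0.47 (adjusted p = 5.21e-05) at a median of 0.644 CPM.

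Among the neuronal lists, falls outnumbered rises in each except that of axon injury. In the presynaptic vesicle and release list 18 of 24 genes fell and none rose (median -0.33). Snap25, a SNARE protein of vesicle fusion, ranged from 1434 to 1672 CPM (median 1621) in TDP-10+12 and from 2308 to 3183 CPM (median 2653) in ctrl-PBS, so that no mice overlapped and the level was 40.4% lower (-0.75 ± 0.04, adjusted p = 2.57e-19). Vamp2, its vesicle partner, was 34.0% lower, also without overlap (-0.60 ± 0.05, adjusted p = 1.85e-13), and Vamp1 showed the largest fall of the list (-0.86 ± 0.08, adjusted p = 5.34e-13). Syt1, the calcium sensor of release, fell by 0.58 ± 0.10 on the log2 scale (adjusted p = 3.75e-06). Syp, by contrast, a vesicle membrane protein, had medians of 1461 and 1528 CPM (-0.05 ± 0.05, adjusted p = 0.442).

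On the postsynaptic side 15 of 22 scaffold and CaM kinase genes fell and 2 rose (median -0.33). Nrgn, the calmodulin-binding neurogranin, ranged from 707 to 1070 CPM (median 966) against 1304 to 2364 CPM (median 1761), without overlap (-0.92 ± 0.08, adjusted p = 7.14e-14), and Dlg4, the scaffold PSD-95, was 21.1% lower (-0.34 ± 0.06, adjusted p = 2.29e-06). Homer3 was higher instead, with medians of 11.6 and 8.87 CPM (0.45 ± 0.08, adjusted p = 1.61e-05). Of the glutamate and GABA receptors 14 of 26 fell and 1 rose (median -0.13). Gria3, an AMPA receptor subunit, ranged from 89.1 to 149 CPM against 171 to 220 CPM, without overlap (-0.67 ± 0.05, adjusted p = 2.43e-15), while its relative Gria1 had medians of 319 and 331 CPM and did not pass (-0.04 ± 0.05, adjusted p = 0.581). The AMPA receptor subunits thus did not share 1 change. Voltage-gated channels gave 18 falls and 2 rises among 32 (median -0.15). Scn4b, a sodium channel auxiliary subunit, was 0.473 of the ctrl-PBS level (-1.08 ± 0.18, adjusted p = 1.62e-06), although 8 of 10 mice lay within the ctrl-PBS range, and Kcnab2, a potassium channel auxiliary subunit, was higher in all 10 mice than in any ctrl-PBS mouse (0.39 ± 0.05, adjusted p = 9.86e-09).

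Immediate early genes, which neurons transcribe within minutes of firing, had 9 falls among 22 and no rise (median -0.42). Arc, a regulator of AMPA receptor traffic, ranged from 44.7 to 185 CPM (median 110) against 101 to 674 CPM (median 329), and 5 of 10 mice lay below every ctrl-PBS mouse (-1.55 ± 0.30, adjusted p = 2.27e-05). Npas4 fell by 1.05 ± 0.21 on the log2 scale (adjusted p = 6.24e-05). Fos, with medians of 14.1 and 24.2 CPM, did not pass (-0.59 ± 0.31, adjusted p = 0.127), and passed without mouse 301 (-0.79, adjusted p = 0.0435). The scores of this list overlapped, from -0.94 to 0.13 in TDP-10+12 and from -0.71 to 0.53 in ctrl-PBS.

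Neurofilament genes were unequal. Nefl, the light chain, ranged from 87.6 to 146 CPM (median 122) against 211 to 271 CPM (median 250), 52.3% lower and without overlap (-1.07 ± 0.06, adjusted p = 1.50e-20). Nefm and Nefh, the medium and heavy chains, fell by 0.47 ± 0.07 and 0.39 ± 0.08 on the log2 scale. Ina, the internexin that assembles with them, was higher instead, with medians of 443 and 350 CPM (0.34 ± 0.06, adjusted p = 1.40e-06).

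Markers of excitatory cortical layers fell in 15 of 25 cases and rose in 2 (median -0.25). Lamp5, a marker of upper layers and of some interneurons, ranged from 24.1 to 46.8 CPM (median 41.6) against 103 to 172 CPM (median 126), without overlap and 69.4% lower (-1.71 ± 0.10, adjusted p = 1.50e-20). The upper-layer factor Cux2 (-0.25 ± 0.08, adjusted p = 0.0115), the layer 6 factor Tbr1 (-0.26 ± 0.07, adjusted p = 0.00170) and the layer 5 factor Fezf2 (-0.44 ± 0.11, adjusted p = 0.000639) fell less, and Cux2 did not pass with library totals only (-0.17, adjusted p = 0.0717). Nxph4, a ligand of neurexins found in deep-layer cells, was higher (0.88 ± 0.18, adjusted p = 6.01e-05), most of all in mouse 301. Lamp5 stood apart from the other layer markers in the size of its fall.

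Interneuron genes fell in 11 of 24 cases and rose in 1 (median -0.19). Pvalb, the calcium buffer of fast-spiking cells, had medians of 29.3 and 46.2 CPM (-0.63 ± 0.11, adjusted p = 3.02e-06), Sst of 251 and 297 CPM (-0.23 ± 0.06, adjusted p = 0.00202) and Vip of 14.5 and 20.3 CPM (-0.43 ± 0.12, adjusted p = 0.00233). Gad1, which makes GABA, fell by 0.30 ± 0.09 on the log2 scale (adjusted p = 0.00410). Lhx6, a transcription factor of the parvalbumin and somatostatin classes, was the gene that rose (0.21 ± 0.05, adjusted p = 0.00129). Neuropeptides and granins gave 11 falls and 2 rises among 21 (median -0.32). Nrn1, the activity-regulated neuritin, had the largest fall, from a median of 111 to 59.4 CPM without overlap (-0.91 ± 0.09, adjusted p = 1.52e-11), followed among those named by Npy (-0.59 ± 0.09, adjusted p = 5.78e-07). Tac2, the neurokinin B precursor, was 1.43-fold higher with 9 of 10 mice above every ctrl-PBS mouse (0.51 ± 0.09, adjusted p = 7.13e-06).

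Axon injury genes had no common direction, with 6 rises and 5 falls among 19 (median -0.03, and 0.05 with library totals only). Atf3, a transcription factor induced in injured neurons and also a target of ATF4, ranged from 1.16 to 5.64 CPM (median 3.16) against 0.108 to 1.25 CPM (median 0.430), a 6.54-fold difference with 9 of 10 mice above every ctrl-PBS mouse (2.71 ± 0.24, adjusted p = 1.03e-13). Gap43, a growth cone protein, was lower (-0.27 ± 0.08, adjusted p = 0.00298), but not without the 7 mice high in choroid plexus or olfactory genes (-0.21, adjusted p = 0.0804). The peptide gene Adcyap1 was lower too (-0.55 ± 0.11, adjusted p = 5.27e-05).

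**Figure D3:**
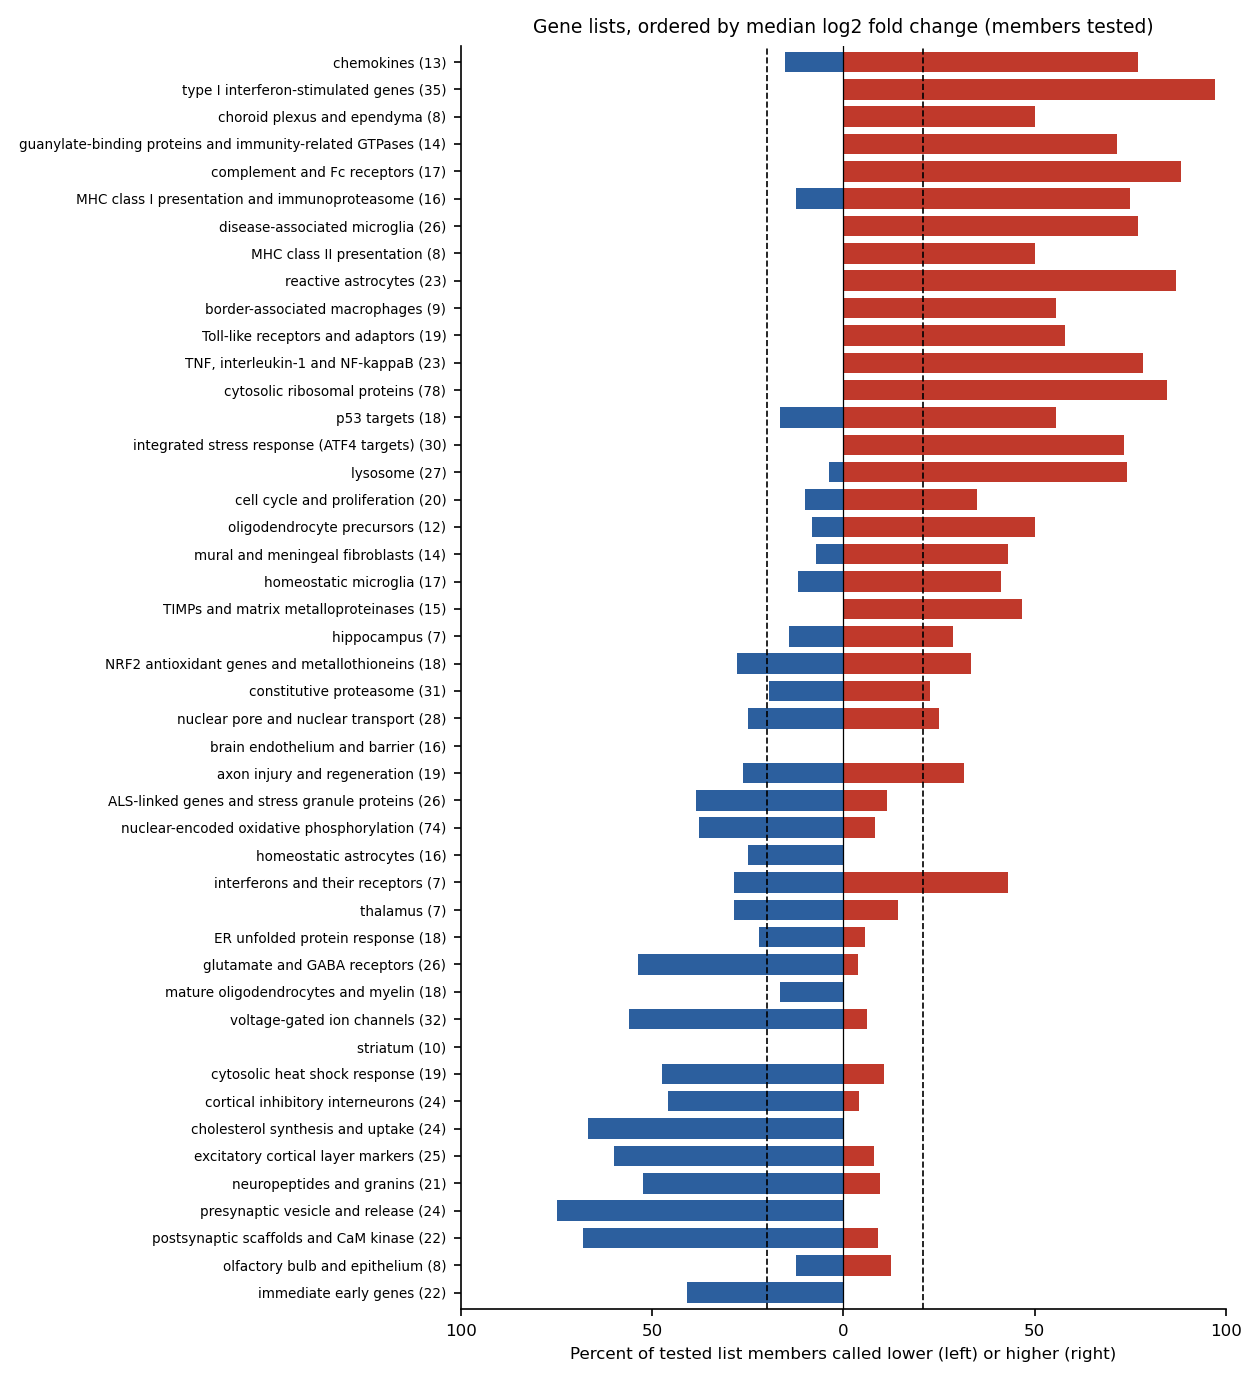
Bars give the percent of tested members called higher (red, right) or lower (blue, left) for each gene list with at least 7 members tested, ordered by median log2 fold change, with the number tested in brackets. Dashed lines mark the shares over all genes, 20.8% higher and 20.0% lower. The type I interferon-stimulated genes reach 97.1% higher, and the presynaptic list is the one with the longest bar to the left among the synaptic lists.

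Of the stress programmes, the integrated stress response had the most called rises. Of 30 ATF4 targets 22 were higher and none lower (median 0.38). Atf4 itself ranged from 84.2 to 143 CPM (median 113) against 62.4 to 76.4 CPM (median 69.0), without overlap (0.72 ± 0.06, adjusted p = 1.18e-13). Ddit3, the factor CHOP, and Chac1, which degrades glutathione, rose 1.49-fold and 1.77-fold (0.58 ± 0.09, adjusted p = 1.33e-06, and 0.82 ± 0.14, adjusted p = 2.74e-06), while Asns, the asparagine synthetase, rose 1.12-fold (0.16 ± 0.05, adjusted p = 0.0149). The C/EBP-ATF element TGATGNAAT, on either strand, was in 2 of the 23 windows of tested genes of this list (8.7%) against 72 of 13340 (0.54%). The unfolded protein response of the endoplasmic reticulum gave 1 rise and 4 falls among 18 (median -0.12). Hspa5, the chaperone BiP, had medians of 96.0 and 109 CPM (-0.19 ± 0.11, adjusted p = 0.155), and Xbp1, its splicing-activated factor, gave no call either (0.06 ± 0.08, adjusted p = 0.594). The sensor Atf6 was lower (-0.30 ± 0.06, adjusted p = 2.82e-05) and the co-chaperone Dnajb9 higher (0.22 ± 0.05, adjusted p = 0.000215). Cytosolic heat shock genes had 9 falls and 2 rises among 19 (median -0.15). Hsph1, an Hsp110 chaperone, fell by 0.70 ± 0.09 on the log2 scale (adjusted p = 7.44e-09). Hspb1, a small chaperone, was higher (0.89 ± 0.27, adjusted p = 0.00690), and not without mouse 301 (0.24, adjusted p = 0.395).

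Targets of p53 gave 10 rises and 3 falls among 18 (median 0.38). Cdkn1a, the cell cycle inhibitor p21, ranged from 41.0 to 222 CPM (median 68.9) against 23.1 to 52.7 CPM (median 29.5), with 8 of 10 mice above every ctrl-PBS mouse (1.28 ± 0.17, adjusted p = 1.42e-08), and Eda2r, a death receptor of the TNF receptor family, was 2.99-fold higher at a median of 0.604 CPM (1.58 ± 0.33, adjusted p = 7.90e-05). Mdm2, the ligase that degrades p53, gave 0.02 ± 0.05 (adjusted p = 0.774), and Ccng1 was lower (-0.40 ± 0.06, adjusted p = 3.29e-07). NRF2 antioxidant genes and metallothioneins were mixed, with 6 rises and 5 falls among 18 (median 0.05). Hmox1, the heme oxygenase, rose 1.67-fold (0.74 ± 0.13, adjusted p = 5.49e-06) and Sod2, the mitochondrial superoxide dismutase, fell by 0.41 ± 0.05 on the log2 scale (adjusted p = 6.57e-09).

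Cholesterol synthesis and uptake genes fell in 16 of 24 cases and rose in none (median -0.24). Fdft1, the squalene synthase, ranged from 51.6 to 70.1 CPM (median 57.6) against 66.8 to 112 CPM (median 96.0), 37.7% lower with 8 of 10 mice below every ctrl-PBS mouse (-0.68 ± 0.06, adjusted p = 2.06e-13). Sqle, the epoxidase of the next step, had no overlap (-0.51 ± 0.06, adjusted p = 6.22e-09). Hmgcs1, an early synthase of the pathway, was chosen after its values were seen, because its window held the sterol regulatory element that SREBP factors bind. It fell by 0.66 ± 0.08 on the log2 scale (adjusted p = 5.70e-10), with medians of 74.4 and 125 CPM. The window on GRCm38.p6, chr13:119690101-119690350 (plus strand), carries the match to TCACNCCAC in capitals, 137 bases before the start.
Hmgcs1: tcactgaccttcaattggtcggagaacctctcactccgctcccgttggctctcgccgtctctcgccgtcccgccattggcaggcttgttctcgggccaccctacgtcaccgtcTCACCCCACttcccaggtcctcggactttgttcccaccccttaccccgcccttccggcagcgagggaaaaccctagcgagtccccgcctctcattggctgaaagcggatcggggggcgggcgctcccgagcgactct
The element was found in 1 of 16 windows of the list (6.25%), against 161 of 13340 (1.21%).

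Of all 52 lists, that of ribosomal proteins was the longest and held the most called rises by number. By share of members tested (84.6%) it came after the interferon-stimulated (97.1%), complement and Fc receptor (88.2%) and reactive astrocyte (87.0%) lists. Of 78 cytosolic ribosomal protein genes 66 were higher and none lower (median 0.42). For 35 of the 78 all 10 TDP-10+12 mice exceeded every ctrl-PBS mouse, against 407 of all 18220 genes tested (2.23%). Rpsa ranged from 604 to 864 CPM (median 686) against 343 to 454 CPM (median 392.4) (0.82 ± 0.05, adjusted p = 6.16e-19). Rplp0 was 1.49-fold higher (0.58 ± 0.05, adjusted p = 1.57e-13), and Rps6 1.12-fold (0.16 ± 0.05, adjusted p = 0.0114, and 0.0526 without the 7 mice high in choroid plexus or olfactory genes). These genes have many processed pseudogenes, which makes the split of reads uncertain. Nuclear-encoded oxidative phosphorylation genes gave 28 falls and 6 rises among 74, with a median of -0.06 that turns to 0.018 with library totals only. Atp5l, a subunit of ATP synthase, fell by 0.52 ± 0.06 on the log2 scale without overlap (adjusted p = 2.93e-09), and Cox7c, of complex IV, was 1.36-fold higher (0.45 ± 0.06, adjusted p = 8.67e-08).

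Lysosomal genes rose in 20 of 27 cases and fell in 1 (median 0.35). Ctsd, an aspartic protease, ranged from 321 to 613 CPM (median 462) against 229 to 284 CPM (median 250), without overlap (0.85 ± 0.08, adjusted p = 3.47e-13), and Grn, which encodes progranulin and causes frontotemporal dementia when mutated, was 1.74-fold higher, also without overlap (0.80 ± 0.08, adjusted p = 1.47e-12). Psap, the prosaposin to which progranulin binds, was the gene that fell, with 942 to 1165 CPM against 1195 to 1417 CPM (-0.21 ± 0.04, adjusted p = 2.88e-06). The groups did not overlap in any of these 3 genes.

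Other genes of ALS and of stress granules were lower in 10 of 26 cases and higher in 3, with a median of -0.06 that turns to 0.016 with library totals only. Ubqln2, a proteasome shuttle, had the largest fall, from a median of 298 to 223 CPM without overlap (-0.48 ± 0.05, adjusted p = 3.70e-12), and Optn, an autophagy receptor, the largest rise (0.32 ± 0.07, adjusted p = 7.13e-05). Sod1 fell by 0.25 ± 0.05 on the log2 scale (adjusted p = 0.000175). The mouse gene Tardbp, which encodes TDP-43, ranged from 106 to 142 CPM (median 122) against 120 to 160 CPM (median 147), 15.3% lower with 3 of 10 mice below every ctrl-PBS mouse (-0.24 ± 0.05, adjusted p = 7.98e-05). Whether reads of the human transgene entered the Tardbp count was not tested, since the table names mouse genes only. Nuclear pore and transport genes balanced, with 7 rises and 7 falls among 28 (median -0.01, and 0.068 with library totals only). Kpna4, an importin alpha, was 1.30-fold higher and Ran, the transport GTPase, 0.816 of the ctrl-PBS level, both without overlap (0.38 ± 0.04, adjusted p = 8.26e-11, and -0.29 ± 0.03, adjusted p = 1.04e-09). Subunits of the constitutive proteasome had 7 rises and 6 falls among 31 (median 0.04). Proliferation genes had 7 rises and 2 falls among 20 (median 0.27), with Mki67 at 0.804 to 5.99 CPM against 0.306 to 1.69 CPM (1.22 ± 0.21, adjusted p = 5.12e-06). Top2a gave 0.95 ± 0.25 (adjusted p = 0.00161) and 0.63 without mouse 301.

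The genes with the smallest p values were not immune genes. Max, the partner of MYC, ranged from 144 to 215 CPM (median 184) against 58.6 to 79.5 CPM (median 67.3), a 2.71-fold difference (1.44 ± 0.05, adjusted p = 1.34e-29). Mapk9, the kinase JNK2, ranged from 96.9 to 116 CPM (median 106) against 212 to 259 CPM (median 234), also without overlap (-1.15 ± 0.04, adjusted p = 9.64e-27). The groups of both genes were far apart, with narrow spreads. Zfp365 (-1.27 ± 0.06), Camkk2, a kinase upstream of AMPK (-1.23 ± 0.06), Rap1gds1, an exchange factor of small GTPases (-0.80 ± 0.04), and Tsnax, the partner of translin (-0.88 ± 0.04), also fell. Rises among these 10 genes were found for the zinc finger genes Zfp280b (1.2 ± 0.05) and Zfp866 (1.01 ± 0.05), the prefoldin-like gene Pdrg1 (1.83 ± 0.09) and the noncoding snoRNA host Zfas1 (1.56 ± 0.08). All 10 TDP-10+12 mice lay outside the ctrl-PBS range in each of the 10. Prnp, the prion protein gene, is not among these 10 and was named as a check gene beside Tardbp. It ranged from 803 to 1674 CPM (median 1021) against 434 to 525 CPM (median 489), 2.16-fold higher without overlap (1.11 ± 0.06, adjusted p = 1.29e-20). Whether transgene reads entered the Prnp count was not tested either, so the value is not read as a change of the endogenous gene.

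The largest falls by fold were found partly in genes of low level. Gm31610, a gene model without a known role, ranged from 0 to 0.693 CPM (median 0.327) against 0.842 to 2.68 CPM (median 2.15), without overlap (-2.66 ± 0.28, adjusted p = 2.78e-11). The calcium channel gene Trpv6 had medians of 0.411 and 1.25 CPM (-1.90 ± 0.34, adjusted p = 8.45e-06), Klhdc7b of 0.530 and 1.63 CPM (-1.69 ± 0.27, adjusted p = 7.18e-07), Gm9269 of 0.432 and 3.26 CPM (-2 ± 0.53, adjusted p = 0.00193) and Gm52213 of 0.501 and 1.16 CPM (-1.51 ± 0.20, adjusted p = 1.72e-08). Ano3, a membrane protein of the anoctamin family, was well measured, with 24.8 to 35.4 CPM against 70.7 to 130 CPM (-1.66 ± 0.10, adjusted p = 3.52e-19). Of the 10 largest falls, Lamp5, Ano3 and Arc were the 3 with ctrl-PBS medians over 10 CPM. Ngp, a neutrophil granule gene, owed its fold change of -2.28 ± 0.75 (adjusted p = 0.0118) to the ctrl-PBS side, where 1 mouse reached 32.0 CPM against a group median of 0.520 CPM, while the TDP-10+12 median was 0.576 CPM. Without that mouse the value was -1.19 (adjusted p = 0.128). Capn11, a calpain, likewise had 2 ctrl-PBS mice, at 8.80 and 8.81 CPM, far above their group's median of 0.456 CPM (-2.08 ± 0.64, adjusted p = 0.00726), and limma-voom gave -1.42 (adjusted p = 0.0696).

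Among the listed genes of blood cells and of macrophages at the borders of the brain, many had too few counts to be tested. The listed constant genes of immunoglobulins and T cell receptors were absent from the counts under the symbols used, so they could not be read. Of the T and NK cell list 3 of 15 members in the table had enough counts to be tested. The defining genes Cd3e and Cd8a had 17 and 23 counts over the 10 TDP-10+12 mice against 26 and 12 over the 17 ctrl-PBS mice. Lck, a kinase of T cell receptors that neurons also express, was higher (0.70 ± 0.18, adjusted p = 0.00170), and Cd4, with medians of 6.87 and 20.1 CPM, lower (-1.34 ± 0.27, adjusted p = 5.77e-05). The summed level of the list was 7.97 to 19.5 CPM (median 11.0) in TDP-10+12 and 3.90 to 37.4 CPM (median 23.2) in ctrl-PBS. Cd4 made up much of these sums while Cd3e had few counts, so neither Cd4 nor the sums are read here as T cells. For B and plasma cells 4 members were tested and Cd22, which microglia can also express, was higher (1.99 ± 0.36, adjusted p = 7.96e-06), with sums of 2.18 to 4.85 and 1.85 to 3.33 CPM. Neutrophil and monocyte genes summed to 3.01 to 10.0 and 1.43 to 61.1 CPM, and Plac8 was higher (1.69 ± 0.40, adjusted p = 0.000485). S100a8 had 39 counts over the 10 TDP-10+12 mice and 208 over the 17 ctrl-PBS mice, of which 1 mouse held 104. Border-associated macrophage genes had 5 rises among 9 and no fall (median 0.50), with Mrc1, the mannose receptor, at 3.25 and 2.53 CPM (0.40 ± 0.16, adjusted p = 0.0458), a call that ended under several alternatives, and Folr2 at 0.522 and 0.198 CPM (0.93 ± 0.33, adjusted p = 0.0191). Their sums of 17.3 to 25.8 and 11.6 to 25.7 CPM overlapped, and the part of these cells in the immune genes above was not tested. Erythroid genes, whose sums were the highest of these lists at 48.0 to 617 CPM (median 176) and 30.4 to 514 CPM (median 153), had no call among 5.

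Genes of tissue next to the neocortex varied widely between mice of both groups. Choroid plexus genes gave 4 rises among 8 (median 1.18), but their summed level had a median of 46.2 CPM in TDP-10+12 and 36.4 CPM in ctrl-PBS, and reached 1720 CPM in 1 TDP-10+12 mouse. Ttr, the transthyretin of the choroid plexus, was 1583 CPM in mouse 51 and 1020 CPM in mouse 200, and at most 89.3 CPM in the other 8 (2.71 ± 0.90, adjusted p = 0.0127). Without mouse 51 it no longer passed (1.70, adjusted p = 0.126) and the list median was 0.67. Olfactory genes were highest in mice 266 and 277 of TDP-10+12 and in mice 131 and 280 of ctrl-PBS, with 1 rise and 1 fall among 8, the rise being Trh (1.01 ± 0.33, adjusted p = 0.0108). No striatal gene of 10 was called, the thalamic list gave 1 rise and 2 falls among 7, the hippocampal list 2 rises and 1 fall among 7, and the pituitary list no call among 3. Without the 7 mice highest in choroid plexus or olfactory genes, 6026 genes were called, 3108 higher and 2918 lower, and the interferon-stimulated, chemokine, synaptic, sterol and ribosomal lists kept the sign of their medians.

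The 10 immunized mice differed among themselves in the size of the changes. Mouse 242 had the lowest score of the 10 in the interferon-stimulated genes (0.704, against 1.59 to 2.40 in the other 9), in disease-associated microglia (0.141 against 0.491 to 1.04) and in chemokines (0.893 against 1.57 to 2.35). It was also the nearest to ctrl-PBS in the presynaptic (-0.199, against -0.271 to -0.481), postsynaptic (-0.121, against -0.215 to -0.432), glutamate and GABA receptor (-0.002), ion channel (-0.040), ATF4 (0.177) and lysosomal (0.096) lists. Its ribosomal score of 0.339 lay above the 0.312 of mouse 301 and below those of the other 8. Mouse 301 had the highest score for reactive astrocytes (1.86) and for proliferation (0.964), and for sterol synthesis a score of -0.009 where the other 9 lay between -0.388 and -0.186. Mice 47 and 130 led in MHC class II genes (1.83 and 1.90), below the 2.11 of 1 ctrl-PBS mouse. In the presynaptic, postsynaptic, ribosomal, ATF4, interferon-stimulated, chemokine, TNF, microglial disease and reactive astrocyte lists all 10 scores were outside the ctrl-PBS range.

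**Figure D4:**
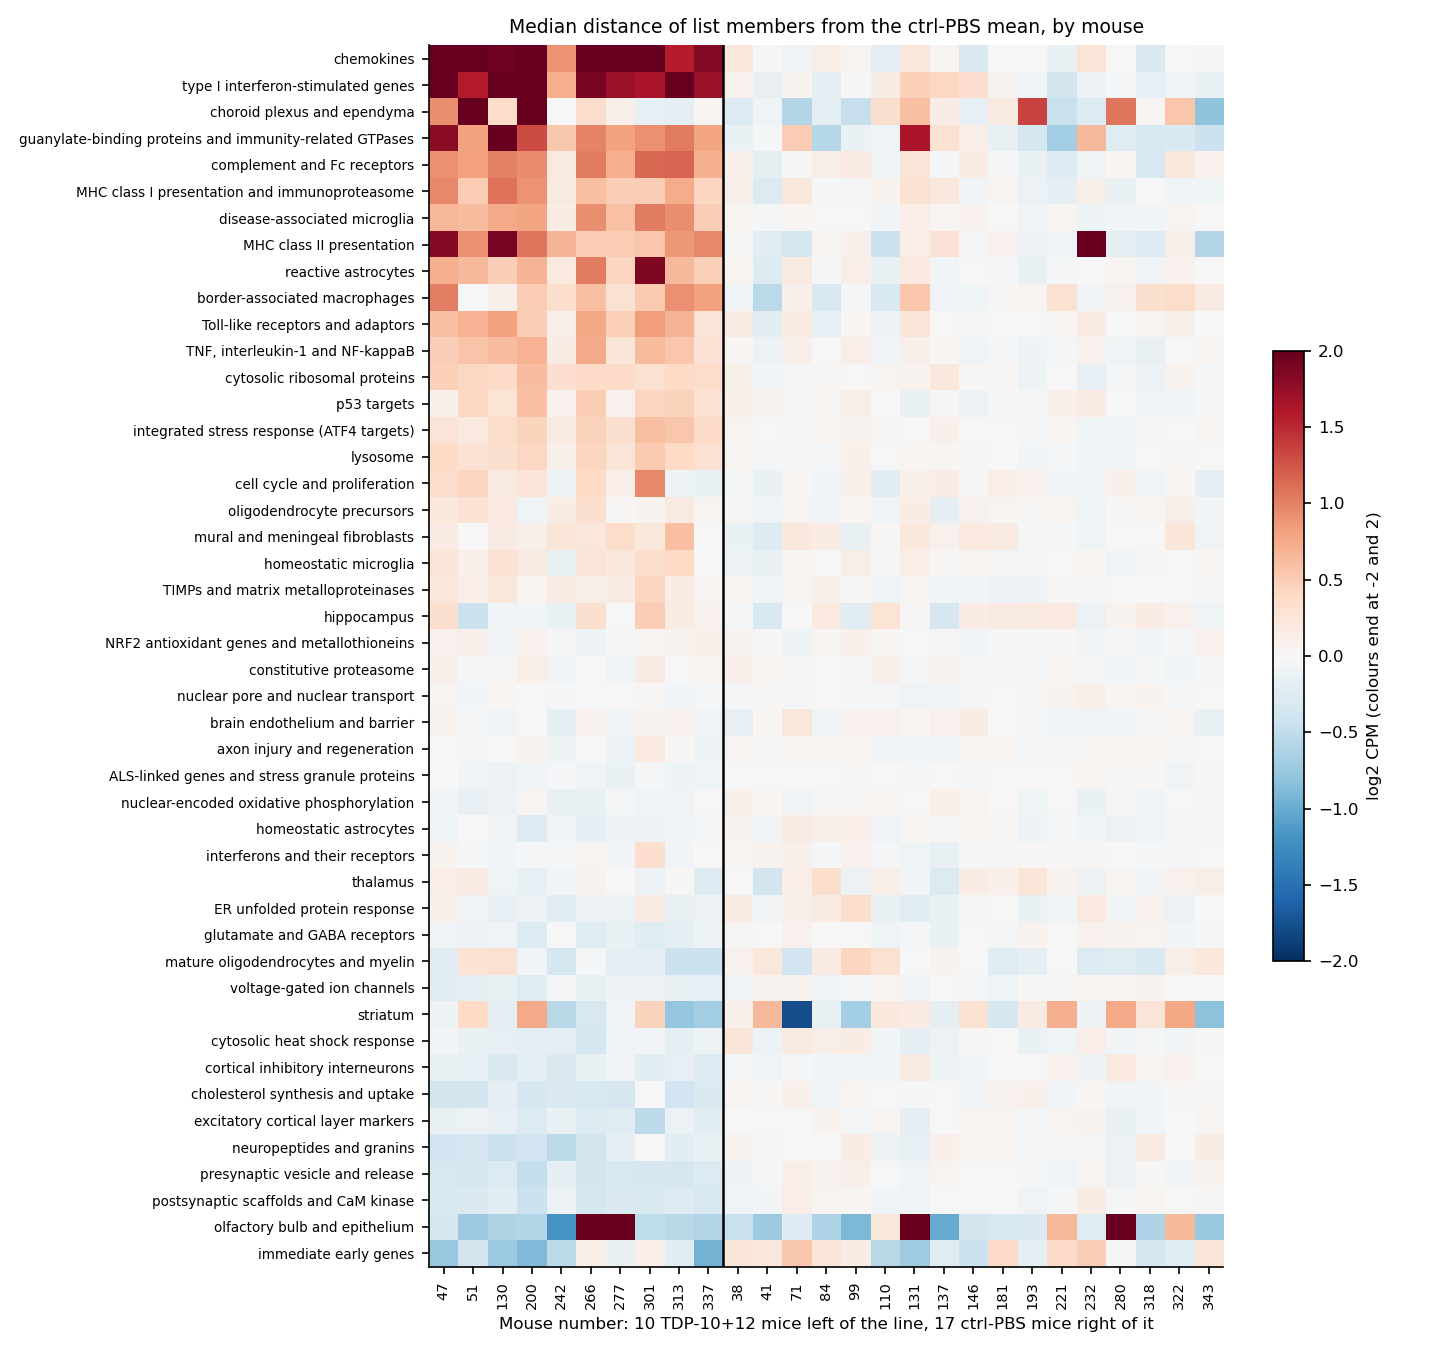
Rows are gene lists with at least 7 members tested, columns are mice (10 TDP-10+12 left of the line, 17 ctrl-PBS right of it), and colour is the median log2 distance of the list's members from their ctrl-PBS mean, cut at -2 and 2. Mouse 242 is pale in the immune rows, mouse 301 is darkest in reactive astrocytes, and mice 51 and 200 are darkest in choroid plexus genes.

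The share of changed genes varied with expression level and gene span. Among 5 bins of equal size by mean CPM, 38.9% of genes were lower and 18.7% higher in the top bin, with a median log2 fold change of -0.06, while in the bottom bin 6.67% were lower and 13.5% higher. By annotated gene span, from start to end in the genome, the bin of longest genes (65400 bases and over) had 26.6% lower and 16.5% higher, against 15.6% and 20.4% in the bin of shortest genes. Among genes over 10 CPM the median log2 fold change of the bin of longest genes was -0.05, and the other 4 bins lay between -0.01 and 0. Autosomes had 37.3% to 43.1% of their genes called, chromosome X 40.9%, the mitochondrial chromosome 15.0% of 20 genes and chromosome Y none of 7. These are descriptions across genes, which are not independent of each other.

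The response was compared between the sexes with an interaction term in the 27 mice. None of 17401 genes passed with edgeR (smallest adjusted p = 0.999), with 597 at an unadjusted p under 0.05 (3.43%), and DESeq2 found none, with 855 at the unadjusted level. The smallest interaction p values belonged to Pym1 (log2 fold change 0.17 in females and -0.27 in males, difference 0.45 ± 0.10), Srp54a (difference 1.01 ± 0.24), Hscb (0.87 ± 0.21), Ndufa7 (0.68 ± 0.18) and Cfap45 (-1.17 ± 0.30), all with an adjusted p of 0.999. The interferon-stimulated list had a median of 2.11 in females and 1.58 in males, and 14 of its 35 members were at an unadjusted p under 0.05 for the difference, against 3.43% of all genes. There were 4 immunized males, and the difference did not pass the adjustment for any gene. In the scores of this list, males 242 (0.704), 51 (1.587) and 301 (1.638) lay below every immunized female (1.728 to 2.401). The remaining male, mouse 130, scored 2.254.

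Bigenic mice given PBS allow the values to be placed beside those of unvaccinated rNLS8 cortex. Against the same 17 ctrl-PBS mice, the interferon-stimulated list had a median of 1.91 in TDP-10+12, 2.31 in TDP-PBS and 2.36 in TDP-15, the group immunized with peptide 15. Cxcl10 stood at 5.19, 5.66 and 5.79 on the log2 scale, Isg15 at 2.90, 3.41 and 3.56, C4b at 2.45, 2.83 and 2.83, and Gfap at 1.64, 1.64 and 1.57. For the presynaptic list the medians were -0.33, -0.35 and -0.35, for ribosomal proteins 0.42, 0.47 and 0.45, and for sterol synthesis -0.24, -0.43 and -0.41. All of these share the ctrl-PBS mice, so that their likeness is no independent evidence. Tested directly against TDP-PBS, no gene passed in TDP-10+12 (smallest adjusted p = 0.38 with edgeR), with 953 of 18220 at an unadjusted p under 0.05 (5.23%). DESeq2 and limma-voom also found none, with 1245 and 943 at the unadjusted level. The smallest p values were those of the ligand Wnt7b (0.37 ± 0.09 higher in TDP-10+12 on the log2 scale), the plakin Ppl (0.73 ± 0.17), the metalloproteinase inhibitor Timp2 (0.31 ± 0.07), Sertm1 (0.48 ± 0.11) and Sqle (0.30 ± 0.07), each at an adjusted p of 0.38. Relative to ctrl-PBS, Wnt7b stood at 0.04 in TDP-10+12 and -0.33 in TDP-PBS, and Sqle at -0.51 and -0.81. In the sterol list 10 of 24 genes had an unadjusted p under 0.05 against TDP-PBS, with a median difference of 0.15. In the interferon-stimulated list 1 of 35 did, with a median difference of -0.34. Mouse 301 had a sterol score of -0.009, and the rest of the TDP-10+12 mice lay between -0.388 and -0.186. The test against TDP-PBS was not repeated without mouse 301.

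**Figure D5:**
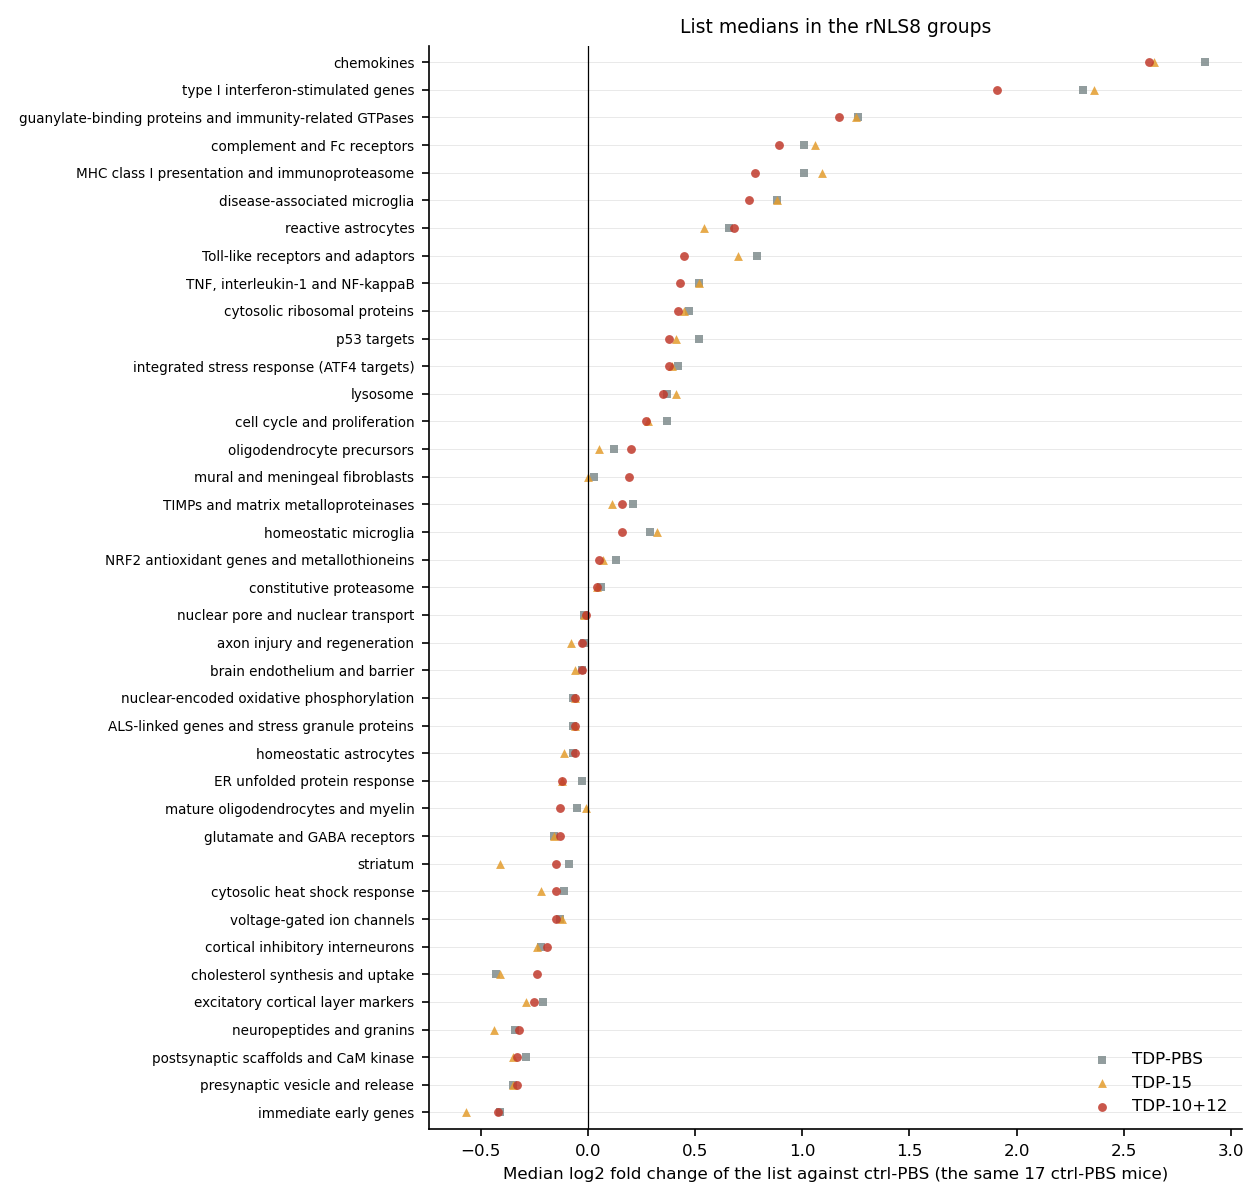
Points give the median log2 fold change of each list with at least 10 members tested against the same 17 ctrl-PBS mice, for TDP-PBS (grey squares), TDP-15 (orange triangles) and TDP-10+12 (red circles). The TDP-10+12 point lies lowest for type I interferon-stimulated genes (1.91 against 2.31 and 2.36) and nearest to 0 for cholesterol synthesis (-0.24 against -0.43 and -0.41). It lies highest for reactive astrocytes (0.68 against 0.66 and 0.54) and oligodendrocyte precursors (0.20 against 0.12 and 0.05). The differences between bigenic groups did not pass for any gene of TDP-10+12 against TDP-PBS.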

How the data were processed

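Neocortical RNA of 49 mice, 1 library per mouse, went into 100 bp paired-end mRNA libraries (200 ng RNA each), which the authors sequenced and placed on GRCm38.p6. The submitters' processing notes name HISAT, HISAT2, Bowtie, Bowtie2 and RSEM without roles or versions, and strand setting and annotation are not given in the sources used here. The deposited values are raw whole-number counts per gene symbol, possibly rounded estimates, for 45252 genes, and 0 sample columns were unused. Counts were scaled with TMM and tested by quasi-likelihood in edgeR 4.0.16 (R 4.3.3) over all 49 mice after filterByExpr (minimum count 10, total 15), two-sided, with Benjamini-Hochberg adjustment over 18220 genes. Every mouse is a separate animal, and the closest libraries of a group differed by a chi-squared of 7.73 per degree of freedom. Alternatives were DESeq2 1.42.0 with its size factors, limma-voom (limma 3.58.1), other normalizations and filters, sex as a covariate, only the 27 mice and each TDP-10+12 mouse left out, and, chosen after seeing the data, 7 mice or 1 ctrl-PBS mouse left out. A mouse score of a list is the median over its tested members of the mouse's log2 CPM (prior count 2) minus the ctrl-PBS mean. Genes were named by rule: the 10 largest rises and falls with a mean of at least 1 CPM, the 10 smallest p values, key members and extremes of 52 lists, and 5 each for sex and TDP-PBS. Members, lists and groups were chosen with earlier results of these data known. Of 1044 list genes, 11 were absent from the counts under the symbols used, and 59 more had too few counts to test. Most of the 11 were immunoglobulin and T cell receptor constant genes. Promoter windows come from RefSeq on GRCm38.p6. A few genes that the rule names are not reported here.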

Additional observations from a re-analysis of the deposited data

Results flagged for a closer look

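In 27 of the 180 genes looked at, 1 TDP-10+12 mouse lay apart from the other 9 by more than Dixon's 95% limit for 10 samples. Chance flags about 1 in 20 groups where genes are independent and not chosen by their values. Here some genes were chosen by the size of their change and the same mice recur, so the count cannot be read against that rate. The male mouse 301 was the one most often apart. It was the highest in Cst7 (6.53 CPM), Gfap (1130 CPM), Vim (159 CPM), Serpina3n (266 CPM), Tgm1 (6.88 CPM), Aqp4 (141 CPM), Timp1 (11.5 CPM) and Nxph4 (25 CPM), and in the stress and proliferation genes Hspb1 (41.1 CPM), Hsph1 (137 CPM), Cdkn1a (222 CPM), Mki67 (5.99 CPM), Top2a (4.35 CPM) and Mcm5 (5.84 CPM). It was also the highest in the sterol gene Hmgcs1 (115 CPM), and in Kpna4 (80.6 CPM), Zfp280b (61.7 CPM), Zfp866 (41.1 CPM) and Prnp (1670 CPM). The same mouse was the lowest in Apoe (706 CPM), Psap (942 CPM) and Optn (10.2 CPM). Mouse 242 was the lowest in Clec7a (0.502 CPM), C1qa (23.9 CPM) and Grn (46.7 CPM) and the highest in Capn11 (1.31 CPM). Mouse 130 was the highest in Psmb8 (28.9 CPM).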

How the results depend on the processing

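No paired analysis was possible because every mouse is a separate animal and the replicate numbers are animal numbers that no 2 groups share. The count of changed genes was 7442, lay between 6873 and 7858 under 9 other settings, and was 7075 to 7421 with 1 mouse left out (higher 3799 to 4002, lower 3264 to 3622, absolute log2 fold change over 1 from 432 to 495). The count over that size, 440, became 1182 with no filter on low counts, 738 with DESeq2 and 171 with at least 10 counts in every mouse. With library totals only, list medians were -0.117 for interneurons, -0.259 for presynaptic genes, -0.078 for ion channels, 0.016 for ALS-linked genes, 0.068 for nuclear pore genes and 0.018 for oxidative phosphorylation, and the signs of Slc17a7 (0.02), Syp (0.03), Gria1 (0.04) and Timp2 (0.02) turned. With at least 10 counts in every mouse, fewer members were left and medians were 0.437 for disease-associated microglia, -0.279 for chemokines, 0.139 for p53 targets and -0.314 for T and NK cells, with none left for B cells, neutrophils and monocytes or pituitary. With only the 27 mice, where fewer genes pass the filter, the chemokine median was 1.537. With limma-voom the median of neutrophil and monocyte genes was 0.031 and of pituitary genes 0.648. With 1 mouse left out the former lay between -0.808 and -0.081, the last without ctrl-PBS mouse 137, and the causes were not tested. Without 7 mice high in choroid plexus or olfactory genes, Gria1 (0.01) and Mdm2 (-0.03) turned sign, and neither was called. Of 180 named genes 154 kept direction and side of the threshold in every alternative that gave a value, as did 40 of 52 list medians within their spread. Depth limits the cytokines and the genes of blood cells.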
